A study of Homo sapiens with 16 samples.

Results

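Expression of the genes that make, salvage and dispose of deoxynucleotides was followed by RNA-seq in LNCaP cells, an androgen-responsive human prostate cancer cell line. The 9 genes were the ribonucleotide reductase subunits RRM1, RRM2 and RRM2B, the thymidylate enzymes TYMS, TK1, DUT and DTYMK, the salvage kinase DCK and the deoxynucleotide hydrolase SAMHD1. They were taken by symbol from the 58051 genes of the count table, and all 9 passed the filter on low counts in both comparisons. In the knockdown experiment, cells received Allstar control siRNA (siCtrl) or siRNA against XBP1 (siXBP1) 2 days before the end treatment. In the inhibitor experiment, cells received DMSO (Vehicle) or 10 µM MKC8866, which blocks the RNase of the ER stress sensor IRE1α and with it the splicing of XBP1 mRNA, for 24 h. Cells of all 4 groups were then given 30 nM thapsigargin (TG), an inhibitor of the calcium pump of the ER, for 3 h, so every value below comes from cells under ER stress and no group without TG was analysed here. Each group held 4 libraries. The cells are of a single line, a single XBP1 siRNA product was used, and the experiments differ in length and in the kind of control, so knockdown against inhibition and experiment against experiment cannot be told apart. The labels do not say that the 4 libraries of a group came from separate cultures, and the p-values measure the spread between these libraries, which may be technical.

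Ribonucleotide reductase turns ribonucleotides into deoxyribonucleotides, the rate-limiting step in the supply of DNA building blocks. The large subunit RRM1 holds the catalytic and the allosteric sites, and it works with a small subunit that carries the radical, either RRM2, which is made in S phase and degraded in mitosis, or RRM2B (p53R2), which is induced by p53 and also serves cells that do not divide. TYMS makes thymidylate from deoxyuridylate, DUT removes dUTP and yields deoxyuridylate for TYMS, TK1 salvages thymidine in S phase, and DTYMK phosphorylates thymidylate from both routes. DCK salvages deoxycytidine and the purine deoxynucleosides, and SAMHD1 breaks deoxynucleoside triphosphates down again.

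Between 28713607 and 34509488 fragments were counted per library, and every member had at least 914 counts in every library. XBP1 fell after knockdown (log2 fold change −2.85, adjusted p = 2.92e-20) and was 0.20 higher with MKC8866 (adjusted p = 0.00493), while the XBP1 target DNAJB9 fell in both comparisons (−2.31 and −1.87, edgeR). All 8 luminal prostate markers were expressed in every group, and of 11 markers of other cell types only COL1A1, ACTA2 and VWF reached a group mean of 1 CPM. Levels are given as CPM, counts scaled to library size after TMM normalization over the 16 libraries. In bulk RNA, fewer cells that express a gene, such as cells in S phase, and less RNA per cell cannot be told apart.

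After XBP1 knockdown RRM2 fell to well under the control level, while RRM2B, DUT and SAMHD1 rose by much smaller amounts. RRM2 lost 61.7% of its mRNA, and the 3 other genes gained between 16.5% and 20.2%. The remaining 5 members, RRM1, TYMS, TK1, DCK and DTYMK, did not pass the test, with log2 fold changes between −0.09 and 0.09. Thus 1 of 9 members was called lower, against 18.2% of all 21021 genes tested, and 3 of 9 were called higher, against 16.5% of all genes (adjusted p under 0.05, edgeR's quasi-likelihood test). The median log2 fold change of the 9 was 0.07, against 0.0050 over all genes. Nothing particular to the members is read from these counts, and the largest single change was that of RRM2.

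With MKC8866 no member was called. The log2 fold changes of the 9 ran from −0.09 for DUT to 0.01 for DCK, and their 95% confidence intervals lay between −0.21 and 0.14. In edgeR's test 0 of 9 members were called lower, against 3.11% of all 21045 genes tested, and 0 of 9 higher, against 1.36%. At an unadjusted p under 0.05 the count was also 0, against 15.2% of all genes, and DESeq2 gave 0 calls as well.

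**Figure D1:**
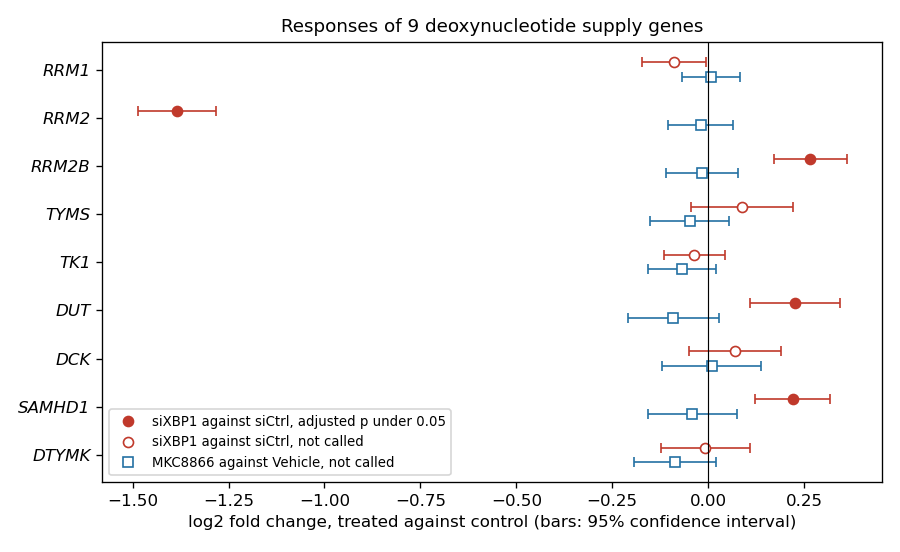
Log2 fold change (x axis) of each of the 9 genes (y axis) after XBP1 knockdown (circles) and with MKC8866 (squares), with 95% confidence intervals and filled symbols for calls at an adjusted p under 0.05. RRM2 stands alone at −1.38 after knockdown, RRM2B, DUT and SAMHD1 lie between 0.22 and 0.27, and all MKC8866 values lie near 0.

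RRM2, the S phase small subunit (ENSG00000171848, GRCh38 chromosome 2, 10122328 to 10131419, plus strand), was at 259, 286, 278 and 286 CPM in the siCtrl libraries and at 98.4, 109.9, 101 and 115 CPM in the siXBP1 libraries. The highest siXBP1 library was thus well below the lowest siCtrl library. The mean fell from 277 ± 12.7 to 106 ± 7.61 CPM (SD, n = 4), a 2.61-fold decrease (−1.38 ± 0.049 (SE) on the log2 scale, edgeR adjusted p = 1.08e-15), and 0.471% of the genes tested had a lower log2 fold change. In the inhibitor experiment RRM2 was at 249, 269.6, 261 and 275 CPM in Vehicle and at 245, 263, 261 and 271 CPM in MKC8866 libraries. These ranges overlapped almost completely, and the log2 fold change was −0.02 (95% confidence interval −0.10 to 0.07). The RRM2 response to knockdown minus that to the inhibitor was −1.36 in log2 units (edgeR interaction, adjusted p = 9.58e-16). Of the RRM2 pseudogene copies in the table, RRM2P3 had a mean of 24.3 counts per library and RRM2P2 of 2.56, against at least 2851 counts for RRM2 in every library.

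The upstream sequences of RRM2 and of its partner RRM1 are shown here because only the former was called lower after knockdown. RefSeq windows of 300 bases around the transcription start (250 before and 50 after, GRCh38.p14) were found for 8 of the 9 members, all but RRM2B. The 250 bases before the start are printed 5′ to 3′ with CCAAT boxes in capitals, chr2:10122489-10122738 on the plus strand for RRM2 and chr11:4094435-4094684 on the plus strand for RRM1. The RRM2 start lies inside the deposited gene, which begins further upstream at an alternative start.
RRM2: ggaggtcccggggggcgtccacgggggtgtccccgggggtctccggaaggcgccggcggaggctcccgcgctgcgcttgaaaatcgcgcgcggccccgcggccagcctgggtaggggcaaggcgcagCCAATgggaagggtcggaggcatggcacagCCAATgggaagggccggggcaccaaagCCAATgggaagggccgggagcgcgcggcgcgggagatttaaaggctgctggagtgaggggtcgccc
RRM1: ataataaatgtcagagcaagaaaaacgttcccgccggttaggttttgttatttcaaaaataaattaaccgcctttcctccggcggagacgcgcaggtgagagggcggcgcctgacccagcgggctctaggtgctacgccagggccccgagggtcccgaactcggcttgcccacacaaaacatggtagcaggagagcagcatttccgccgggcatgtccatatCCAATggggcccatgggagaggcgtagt

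The printed RRM2 window held 3 CCAAT boxes, beginning 123, 93 and 66 bases before the start, and the RRM1 window held 1, at 28 bases. A second RefSeq window of RRM2, for a start further upstream (chr2:10122318-10122617, plus strand), held 1 CCAAT box, at 249 bases, the same number as that of RRM1. Letters CCAAT on either strand were found in 34.6% of 35116 RefSeq windows of the same length. None of these 3 windows held the E2F letters TTTGGCGC, TTTCGCGC or TTTGCCGC (1.74% of windows) or an ER stress element, here CCAAT, 9 bases and CCACG (0.0769% of windows). Other forms of the E2F site were not searched. GACGTG, the core of sites bound by XBP1, was absent from both RRM2 windows and present once in the RRM1 window on the minus strand, in the 50 bases after the start, and 7.81% of all windows held it. Among the other members it was found in windows of TK1, SAMHD1 and DUT, and in none of TYMS, DCK or DTYMK. ACGT, which lies within GACGTG, was found in 33.3% of windows, in that of RRM1 but in neither of RRM2. The letters TTTGAA or TTTAAA (24% of windows) were found in the printed RRM2 window, at 30 bases, and in that of RRM1, at 199 bases. The second RRM2 window held neither. These are matches of letters and say nothing of whether a factor was bound.

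RRM1, the large subunit (ENSG00000167325, chromosome 11, 4094707 to 4138876, plus strand), was at 189, 177, 187 and 186 CPM in siCtrl and at 171, 167, 181 and 175 CPM in siXBP1 libraries. The siXBP1 libraries lay below all siCtrl libraries in 3 of 4 cases, and the ranges overlapped. The log2 fold change of −0.09 (95% confidence interval −0.17 to −0.0066) was not called in edgeR (adjusted p = 0.0902). It passed the threshold only when all 16 libraries were fitted together (adjusted p = 0.0476). In Vehicle and MKC8866 cells RRM1 ranged from 182 to 189.6 and from 184 to 191 CPM, and these ranges overlapped (log2 fold change 0.0070).

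RRM2B, the p53-inducible small subunit (ENSG00000048392, chromosome 8, 102204502 to 102239118, minus strand), was at 106, 99.5, 101 and 109 CPM in siCtrl and at 118, 124, 133 and 124 CPM in siXBP1 libraries. All 4 siXBP1 libraries were above all siCtrl libraries. The mean rose from 104 ± 4.31 to 125 ± 6.37 CPM (SD, n = 4), which was 0.27 ± 0.046 (SE) on the log2 scale (edgeR, adjusted p = 7.28e-05), and 20.3% of the genes tested had a higher one. With MKC8866 it was at 98.1, 104, 94.97 and 103 CPM, within the range of 96.8 to 108 CPM in Vehicle libraries but for the lowest library (log2 fold change −0.02). The responses differed by 0.28 (edgeR interaction, adjusted p = 0.00143).

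Levels of the 3 subunit genes were compared per length, as RPKM (CPM per kb of the deposited exon length). That length may include exons that the transcripts of these cells lack, which was not examined. Levels, ratios and shares between genes depend on it. In siCtrl cells RRM2 had the highest level with 56.0 ± 2.57 RPKM, followed by RRM1 with 44.2 ± 1.30 and RRM2B with 18.7 ± 0.776 (SD, n = 4). In siXBP1 cells RRM1 had the highest level with 41.5 ± 1.42, and RRM2 with 21.4 ± 1.54 and RRM2B with 22.5 ± 1.15 were at similar levels. The ratio of RRM2B to RRM2 was 0.335 ± 0.0238 in siCtrl and 1.05 ± 0.0929 in siXBP1 cells, and 0.343 and 0.344 in Vehicle and MKC8866 cells. RRM2B thus made up between 49.0% and 54.0% of the small subunit mRNA in the siXBP1 libraries, against 23.7% to 26.8% in the other 12. The small subunits together fell from 74.7 ± 2.49 to 43.9 ± 1.90 RPKM after knockdown, since the gain of RRM2B was a small part of what RRM2 lost. Their ratio to RRM1 was 1.69 ± 0.0914 in siCtrl, 1.06 ± 0.0508 in siXBP1, 1.60 ± 0.0497 in Vehicle and 1.57 ± 0.0688 in MKC8866 cells. The ratios follow from the levels above and were not tested separately.

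**Figure D2:**
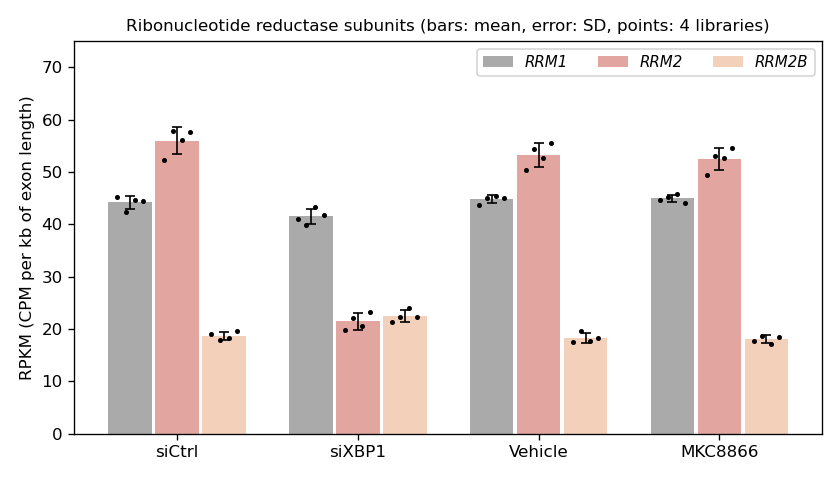
RPKM (y axis) of RRM1, RRM2 and RRM2B in the 4 groups (x axis), with bars for the mean of 4 libraries, error bars for the SD and points for single libraries. RRM2 is the highest bar in siCtrl, Vehicle and MKC8866 cells and drops to the height of RRM2B in siXBP1 cells.

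DUT, the dUTPase (ENSG00000128951, chromosome 15, 48331011 to 48343373, plus strand), was at 42.1, 37.4, 37.9 and 36.7 CPM in siCtrl and at 42.2, 47.1, 48.2 and 42.7 CPM in siXBP1 libraries. The groups did not overlap, but siCtrl replicate 1 was within 1 CPM of the lowest siXBP1 library. The mean rose from 38.5 ± 2.45 to 45.04 ± 3.03 CPM (SD, n = 4), which was 0.23 ± 0.057 (SE) on the log2 scale (edgeR, adjusted p = 0.00315). With MKC8866 the log2 fold change was −0.09 (95% confidence interval −0.21 to 0.03), and the difference between the responses was 0.32 (edgeR interaction, adjusted p = 0.00539). DUT ranged from 45.4 to 51.8 CPM in Vehicle and from 40.3 to 48.4 CPM in MKC8866 libraries, so the siXBP1 level lay among those of the inhibitor experiment and the siCtrl level below that of Vehicle. DUT shares 533 exon bases, 14.5% of its own, with the antisense gene DUT-AS1, and fragments in such an overlap could not be assigned to either gene by the strand-blind count. DUT-AS1 had a log2 fold change of 0.23 after knockdown (adjusted p = 0.121).

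SAMHD1, the deoxynucleoside triphosphate hydrolase (ENSG00000101347, chromosome 20, 36890229 to 36951843, minus strand), was at 37.7, 37.7, 39.0 and 39.3 CPM in siCtrl and at 44.0, 43.8, 46.6 and 44.5 CPM in siXBP1 libraries. The groups did not overlap. The mean rose from 38.4 ± 0.861 to 44.7 ± 1.28 CPM (SD, n = 4), which was 0.22 ± 0.047 (SE) on the log2 scale (edgeR, adjusted p = 7.18e-04). With MKC8866 it was at 30.4, 33.9, 33.8 and 34.8 CPM, against 33.7, 36.4, 34.5 and 32.5 CPM in Vehicle libraries. These groups overlapped (log2 fold change −0.04), and the responses differed by 0.26 (edgeR interaction, adjusted p = 0.00583). Vehicle libraries were all below siCtrl libraries, a gap between controls of different experiments that was not tested.

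The other thymidylate enzymes stayed near their control levels. TYMS (ENSG00000176890, chromosome 18, 657604 to 673578, plus strand) was at 48.0, 43.7, 44.0 and 49.0 CPM in siCtrl and at 47.0, 46.1, 57.0 and 46.4 CPM in siXBP1 libraries. A single library, siXBP1 replicate 3, was above all siCtrl libraries. The log2 fold change was 0.09 (95% confidence interval −0.04 to 0.22, adjusted p = 0.325, edgeR), and 0.01 without that library. TYMS was higher in the inhibitor experiment, from 54.4 to 58.6 CPM in Vehicle and from 50.7 to 57.2 CPM in MKC8866 libraries, and these ranges overlapped. TYMS shares 648 exon bases, 26.2% of its own, with the opposite-strand genes TYMSOS and ENOSF1, and its level therefore rests on the rest of its exons. Of these neighbours TYMSOS was called higher after knockdown (log2 fold change 0.39, adjusted p = 0.00705), and ENOSF1 had a log2 fold change of 0.02.

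TK1, the cytosolic thymidine kinase (ENSG00000167900, chromosome 17, 78174075 to 78187233, minus strand), was the member with the highest level per length, at 71.5 ± 1.35 RPKM in siCtrl cells (SD, n = 4). It ranged from 130.0 to 136 CPM in siCtrl and from 128 to 134 CPM in siXBP1 libraries, which overlapped (log2 fold change −0.04, 95% confidence interval −0.12 to 0.04). With MKC8866 it ranged from 123 to 130.1 CPM, against 125 to 139 CPM in Vehicle libraries, and the log2 fold change was −0.07 (95% confidence interval −0.16 to 0.02).

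DTYMK, the thymidylate kinase (ENSG00000168393, chromosome 2, 241675742 to 241686991, minus strand), ranged from 31.9 to 37.8 CPM in siCtrl and from 34.1 to 36.3 CPM in siXBP1 libraries. The siXBP1 range lay inside the siCtrl range, and the log2 fold change was −0.0073 (95% confidence interval −0.12 to 0.11). With MKC8866 it was −0.09 (95% confidence interval −0.19 to 0.02).

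DCK, the deoxycytidine kinase (ENSG00000156136, chromosome 4, 70992538 to 71030914, plus strand), was at 40.7, 36.6, 38.5 and 44.6 CPM in siCtrl and at 40.1, 42.1, 43.5 and 42.7 CPM in siXBP1 libraries. The ranges overlapped, with a log2 fold change of 0.07 (95% confidence interval −0.05 to 0.19). Its log2 fold change with MKC8866 was 0.0086 (95% confidence interval −0.12 to 0.14). DCK shares 199 exon bases, 6.17% of its own, with MOB1B on the same strand, which fell by 0.56 on the log2 scale after knockdown (adjusted p = 2.47e-09, edgeR).

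**Figure D3:**
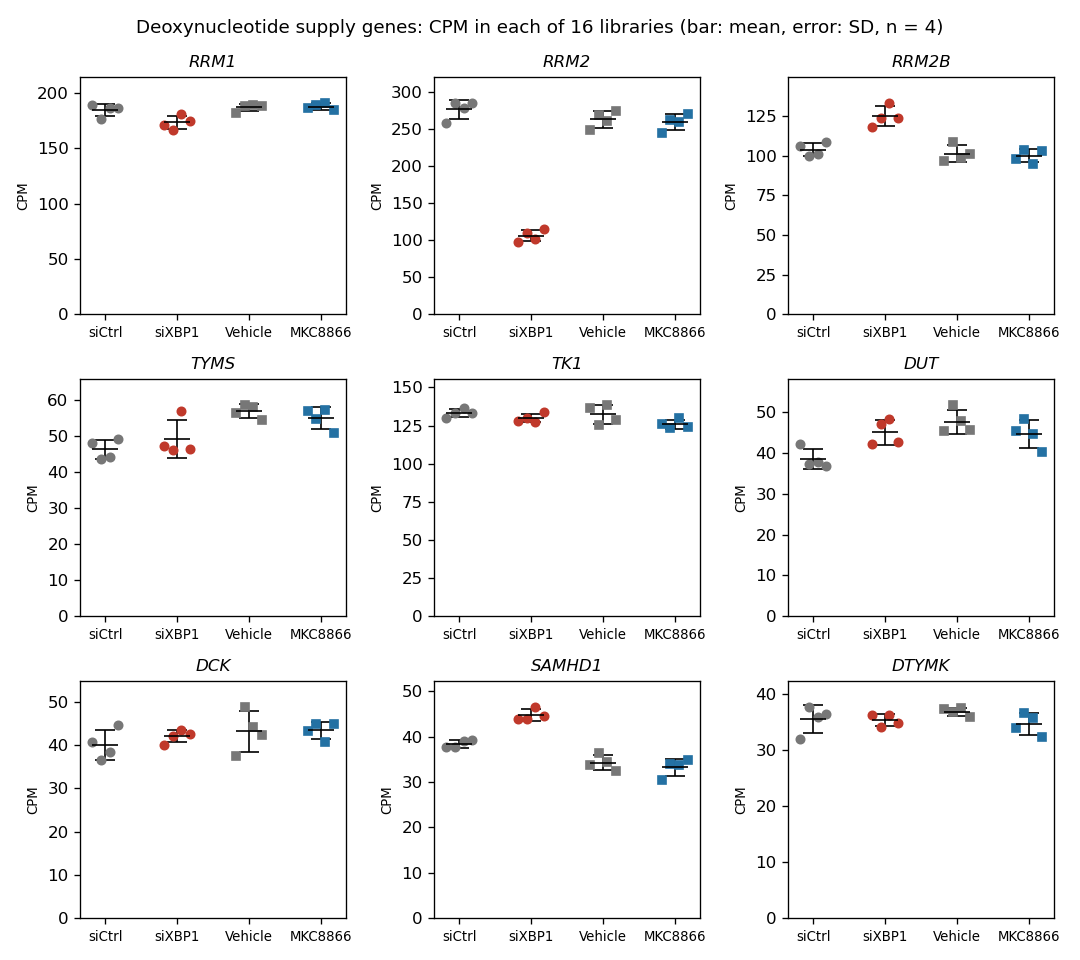
CPM (y axes, from 0) of the 9 genes in each of the 16 libraries by group (x axes), with circles for the knockdown and squares for the inhibitor experiment, a bar for the mean and error bars for the SD of 4 libraries. RRM2 falls from 277 to 106 CPM in siXBP1. RRM2B, SAMHD1 and, narrowly, DUT lie above their siCtrl ranges there, and a single TYMS library stands at 57.0 CPM.

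Ordered by mean level over the 4 groups, neighbouring groups had separate ranges for 3 of the 9 genes. The share of all genes with separate ranges was not computed, so nothing particular to the members is read from this count. RRM2 was lowest in siXBP1 cells, apart from MKC8866, Vehicle and siCtrl cells, whose ranges overlapped in turn. RRM2B was highest in siXBP1 cells, apart from siCtrl cells, and the other groups overlapped. For SAMHD1 the order was MKC8866 and Vehicle, which overlapped, then siCtrl, then siXBP1, each of the latter apart from its neighbours. For RRM1, TYMS, TK1, DUT, DCK and DTYMK every pair of neighbours in the order overlapped.

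The difference between the 2 responses was called for 4 of 9 members, RRM2, RRM2B, DUT and SAMHD1, against 23.3% of the 20357 genes tested in both comparisons. It was not called for RRM1 (−0.09, adjusted p = 0.201), TYMS (0.14, adjusted p = 0.261), TK1 (0.03), DCK (0.06) or DTYMK (0.08) in edgeR's interaction test, whose estimates had 95% confidence intervals between −0.20 and 0.31.

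Other genes of deoxynucleotide metabolism were taken from 6 lists with 36 genes, of which 35 passed the filter. After knockdown 12 of 35 were called lower (34.3%), against 18.2% of all genes, and 4 higher (11.4%), against 16.5%. The median change of the 35 was −0.04 in log2 units. In the inhibitor experiment 0 of 35 were called in edgeR, against 3.11% of all genes lower and 1.36% higher, and 0 in DESeq2. At an unadjusted p under 0.05 in edgeR there were 3, against 15.2% of all genes. Among 10 nucleoside and nucleotide kinases, 5 were lower and none higher after knockdown. CMPK1, which phosphorylates CMP, UMP and dCMP, fell from 211 ± 9.01 to 113 ± 6.02 CPM (SD, n = 4; log2 fold change −0.90, adjusted p = 4.70e-13, edgeR). The mitochondrial thymidine kinase TK2 fell by 0.33, the diphosphate kinase NME6 by 0.29 and the guanylate kinase GUK1 by 0.14 on the log2 scale. CMPK1 did not move with MKC8866 beyond the spread of the libraries (log2 fold change −0.05).

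Of 9 deaminases, phosphorylases and nucleotidases tested, 1 was lower after knockdown, the purine nucleoside phosphorylase PNP (−0.25), and 2 were higher, the nucleotidases NT5C3A (0.34) and NT5M (0.35). Over all genes 18.2% were called lower and 16.5% higher after knockdown. The NT5M call was lost without siCtrl replicate 1, siXBP1 replicate 1 or siXBP1 replicate 3 (adjusted p up to 0.0758). In the thymidylate cycle MTHFD1 fell by 0.40 and SHMT1 by 0.12. The SHMT1 call was lost without siCtrl replicate 2 or 3 or siXBP1 replicate 1, 2 or 4 (adjusted p up to 0.102). Of 4 genes that clean the nucleotide pool, DCTPP1 was lower (−0.21), a call lost without siCtrl replicate 2 or 3 (adjusted p up to 0.0872). Of 4 electron donors of the reductase, 1 fell, the thioredoxin reductase TXNRD1, from 378 ± 14.4 to 305 ± 13.8 CPM (SD, n = 4; log2 fold change −0.31, adjusted p = 3.24e-06, edgeR). Among 5 carriers, the lysosomal nucleoside transporter SLC29A3 (0.59) and the mitochondrial SLC25A36 (0.14) rose, and SLC25A33 (−0.40) and SLC29A2 (−0.27) fell.

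Of 6 regulators of the reductase protein, 2 were higher after knockdown, against 16.5% of all genes, and 2 lower, against 18.2%. CCNF, the cyclin F that marks RRM2 for degradation, rose from 34.3 ± 2.99 to 42.5 ± 2.80 CPM (SD, n = 4; log2 fold change 0.31, adjusted p = 3.89e-04, edgeR), and the kinase WEE1 rose by 0.18. The checkpoint kinases CHEK1 and ATR fell by 0.25 and 0.25. With MKC8866 none of the 6 was called in edgeR or DESeq2, and 2 had an unadjusted p under 0.05 in edgeR, against 15.2% of all genes. These were CCNF (0.16) and WEE1 (0.15), the 2 that rose after knockdown. Both were called higher with a block by replicate number (edgeR adjusted p = 0.00805 and 0.00382), as were 1262 of all genes. The difference between the responses was called for neither (edgeR interaction, adjusted p = 0.267 and 0.770).

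Transcription factors of the S phase program and replication genes moved in both directions. Over all genes 18.2% were called lower and 16.5% higher after knockdown, and 3.11% and 1.36% with MKC8866. Of 9 factors, 2 were lower and 2 higher after knockdown, E2F2 (−0.48) and E2F3 (−0.13) against FOXM1 (0.28) and MYBL2 (0.16). The E2F3 call was near the threshold (adjusted p = 0.0359, edgeR). With MKC8866 3 were higher, E2F2 (0.30), E2F8 (0.22) and E2F7 (0.18). E2F3 had a log2 fold change of 0.15 with MKC8866, not called in edgeR (adjusted p = 0.0655) but called in DESeq2 (adjusted p = 0.0416). Its responses differed by −0.29 (edgeR interaction, adjusted p = 0.00102). The E2F2 call with MKC8866 was lost without MKC8866 replicate 1, 3 or 4 or Vehicle replicate 2 or 4 (adjusted p up to 0.102), the E2F7 call without MKC8866 replicate 3 or 4 or Vehicle replicate 2 or 4 (up to 0.0954), and the E2F8 call without MKC8866 replicate 1 or 4 or any single Vehicle library (up to 0.150). E2F1, a known activator of RRM2, had a log2 fold change of −0.04 after knockdown. Of 18 replication and cell cycle genes, 10 were lower and 5 higher after knockdown (median −0.22), and 2 were lower and 2 higher with MKC8866 (CCNE2 and UHRF1, by 0.22 and 0.21). The loading factor CDC6 fell by 1.47 and the flap endonuclease FEN1 by 1.27 on the log2 scale, RRM2 lying between them, while MCM5 (−0.52) and MCM6 (−0.46) came next. CDC6 and FEN1, unlike RRM2, were also called lower with MKC8866 (−0.64 and −0.27, edgeR adjusted p = 4.21e-11 and 1.10e-04). The 5 called higher after knockdown were MKI67 (0.34), TOP2A (0.41), CCNA2 (0.26), CCNE1 (0.35) and UHRF1 (0.15). UHRF1 was near the threshold (adjusted p = 0.0401, edgeR), and its groups overlapped. MCM2 (−0.27), MCM3 (−0.33), MCM4 (−0.29), MCM7 (−0.20), CDT1 (−0.23) and GINS2 (−0.24) were called lower as well, and PCNA (−0.10) was not called. Genes of cycling cells thus moved in both directions, and the part of a shifted cell cycle in the RRM2 level was not tested.

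A list of 12 other p53 targets was also examined. After knockdown 9 of the 12 were higher, against 16.5% of all genes, and 2 were lower, against 18.2%, and their median was 0.22 in log2 units. Whether p53 had a part in the RRM2B level was not tested. SESN1 (1.02), BBC3 (0.91) and DDB2 (0.80) rose most, and AEN (−0.64) and TP53INP1 (−0.25) fell. CDKN1A and MDM2 were among those called higher, with log2 fold changes of 0.19 and 0.15 (edgeR adjusted p = 4.45e-04 and 0.00876). With MKC8866 1 of 12 was higher, PLK2 (0.37), against 1.36% of all genes, and 1 lower, AEN (−0.18), against 3.11%. The lists of this section were chosen with results of these data known and are not independent evidence of a direction.

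**Figure D4:**
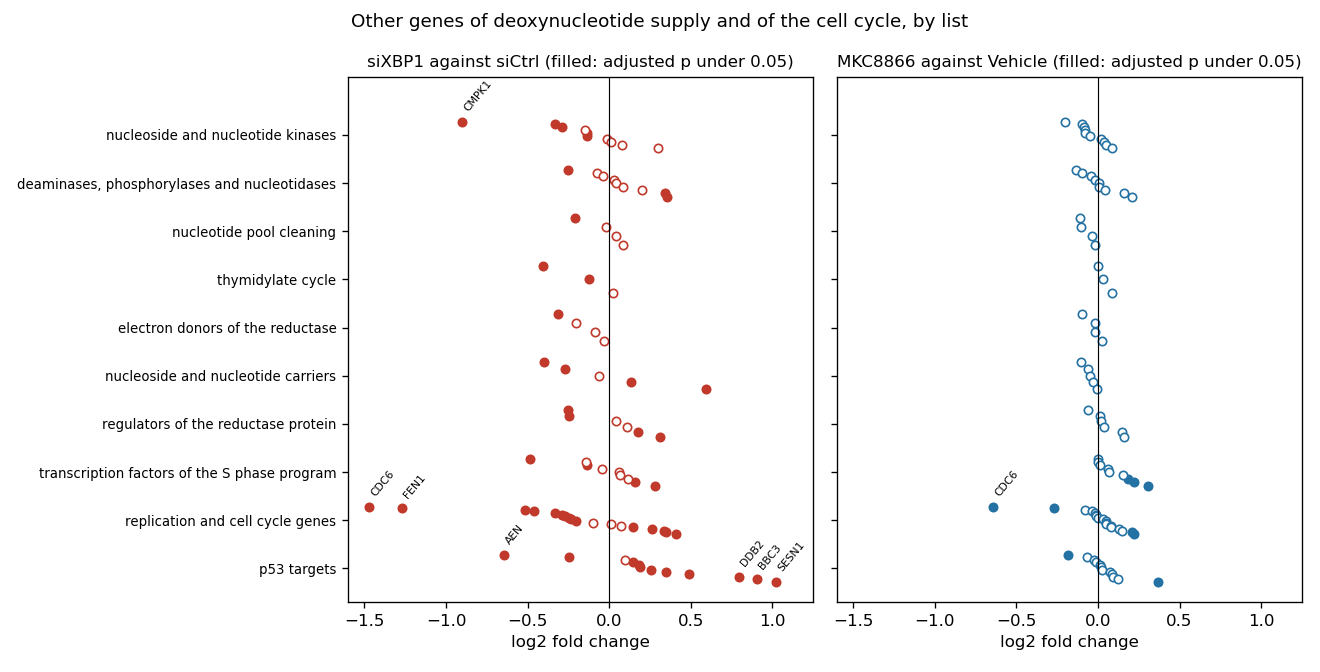
Log2 fold change (x axes) of the genes of 10 lists (y axis) after XBP1 knockdown (left) and with MKC8866 (right), a point for each gene tested, filled for calls at an adjusted p under 0.05 in edgeR. Points spread from −1.47 for CDC6 to 1.02 for SESN1 after knockdown and from −0.64 to 0.37 with MKC8866.

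Likeness of pattern was measured as the root mean square difference of log2 CPM, centred on each gene's mean, over the 16 libraries among 15037 genes. Among the genes most like RRM2 were PTBP3 (0.066), CUL4B (0.075), DHX40 (0.079) and EIF3D (0.080), none of them a gene of the lists above. Each of these 4 fell by 1.29 to 1.51 on the log2 scale after knockdown and moved by at most 0.09 with MKC8866. That follows from their choice by likeness to RRM2 over the same libraries and is not a separate result. For RRM2B the nearest were DCUN1D5, TRIAP1, SEPHS2, TMEM87A and LAMP2, at 0.047 to 0.050, and for TYMS they included MRPS34, UBR7, SLBP and HEBP2, at 0.063 to 0.076. The RRM2B and TYMS patterns were themselves small, with root mean squares of 0.14 and 0.15 against 0.58 for RRM2.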

How the data were processed

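RNA was sequenced from 16 libraries of LNCaP cells. Per the paper's methods and the submitters' processing notes, the authors aligned the reads to GRCh38 with STAR 2.5.2a and summarised them with featureCounts 1.5.0, in its unstranded mode, whereas the library kit keeps strand. The values as deposited by the authors are counts of fragments per Ensembl gene, not normalized, with the exon length of each gene as another deposited column. Of 58051 genes, 56948 were matched to a symbol. No column of another sample was present (0 columns).

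Each treatment was tested against its own control in R 4.3.3 with edgeR 4.0.16 (TMM, quasi-likelihood F test, two-sided), on genes exceeding 5 counts in 1 or more libraries of both groups, at a Benjamini-Hochberg adjusted p under 0.05 over all genes tested. The biological coefficient of variation, estimated in common over all genes, was 5.40% (knockdown) and 4.97% (inhibitor). The spread of each member was not set against its counting error. An interaction contrast over the 16 libraries tested the difference between the responses. Log2 CPM for likeness used a prior count of 2 and genes with a mean of at least 1 CPM. Libraries of a group differed by more than sampling noise in every pair, so none was counted as a repeat. Alternatives were DESeq2 1.42.0, its size factors in edgeR, no filter, a minimum of 10 counts per library, a block by replicate number, a joint fit of both experiments and the removal of each library. The tests were tried on simulated data.

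The members and lists were chosen with earlier results of these data known. All 9 members are named, with at most 4 called genes of the largest log2 fold change per list, up to 5 genes nearest in pattern to RRM2, RRM2B and TYMS, and genes overlapping a member. Some genes that meet this rule are not reported here. E2F1, E2F3, MYBL2, CCNE1, CCNE2, CCNA2, UHRF1, TOP2A, MKI67, CDKN1A, MDM2, TP53INP1 and PLK2 were named after their values were seen. So were MCM2, MCM3, MCM4, MCM7, CDT1, GINS2 and PCNA. How the calls of these genes hold without single libraries was not examined. Sequences are from RefSeq (GRCh38.p14). Python 3.11.15, numpy 2.4.6, pandas 2.3.3 and matplotlib 3.10.9 were used.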

Additional observations from a re-analysis of the deposited data

Results flagged for a closer look

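Among 36 groups of 4 libraries (9 genes in 4 groups), 1 library stood far from the other libraries of its group, TYMS in siXBP1 replicate 3 with 57.0 CPM against 46.1 to 47.0 CPM in the others. Chance gives such a library in about 1 of 20 groups. The same library was also the highest siXBP1 library for RRM1, RRM2B, DUT, DCK, SAMHD1 and DTYMK, but not for RRM2 or TK1, and the calls of RRM2, RRM2B, DUT and SAMHD1 held without it.

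The response to siXBP1 minus the response to MKC8866, on the log2 scale and tested by edgeR's interaction, was −1.36 for RRM2, 0.28 for RRM2B, 0.32 for DUT and 0.26 for SAMHD1. These 4 calls held in all 21 alternatives. Among the other genes of deoxynucleotide metabolism it was −0.85 for CMPK1, −0.37 for TK2, −0.33 for NME6, 0.36 for NT5C3A, −0.40 for MTHFD1, −0.15 for SHMT1, −0.29 for TXNRD1, 0.70 for SLC29A3, −0.26 for SLC29A2 and 0.19 for SLC25A36. Among regulators and cell cycle genes it was −0.19 for CHEK1, −0.28 for ATR, −0.78 for E2F2, 0.21 for FOXM1, −0.36 for E2F8, −0.82 for CDC6, −0.999 for FEN1, −0.59 for MCM5 and −0.44 for MCM6. For p53 targets it was 1.05 for SESN1, 0.78 for BBC3, 0.72 for DDB2 and −0.46 for AEN. The difference for SHMT1 was lost in 12 of 16 fits that left out a library, that for CHEK1 in 7, for SLC29A2 in 6, for FOXM1 in 5 and for SLC25A36 in 4, with adjusted p values of up to 0.102, 0.0742, 0.0923, 0.0701 and 0.0657. The cause of these differences was not tested, and the experiments differ in control and in length of treatment.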

How the results depend on the processing

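The knockdown calls of RRM2, RRM2B, DUT and SAMHD1 held in all 14 alternatives, with log2 fold changes from −1.42 to −1.34, 0.23 to 0.30, 0.20 to 0.28 and 0.20 to 0.24. With all 16 libraries in 1 fit, RRM1 was also called lower (adjusted p = 0.0476), for 2 lower members. No member was called with MKC8866 in any alternative. At a minimum of 10 counts in every library the DTYMK log2 fold change after knockdown turned to 0.0040. Leaving out single libraries turned the sign of small values. After knockdown DTYMK lay between −0.0493 and 0.0352. With MKC8866, DCK lay between −0.0559 and 0.0686, RRM1 between −0.0079 and 0.0109, RRM2 between −0.0490 and 0.0010 and RRM2B between −0.0395 and 0.0152, TXNRD1 between −0.0466 and 0.0049, SLC29A2 between −0.0817 and 0.0415, MTHFD1 between −0.0328 and 0.0086, SLC25A33 between −0.12 and 0.0177 and SESN1 between −0.0604 and 0.0045. The difference between the responses lay between −0.00054 and 0.12 for DCK and between −0.0024 and 0.0675 for WEE1. The same omissions left 1 lower and 3 higher members after knockdown and in the difference, 0 with MKC8866, and gave 3365 to 3622 lower and 3172 to 3475 higher genes after knockdown, 527 to 833 and 180 to 484 with MKC8866, and 2371 to 2655 and 1897 to 2139 for the difference. Replicate numbers were shared by the groups, but no label gives them a meaning, and they were not taken as pairs because not every same-numbered pair correlated above 0.1. No knockdown library resembled its own number most, and in the inhibitor experiment 3 of 4 did, a hint from the data that these libraries may be paired, with correlations of 0.081 to 0.33 between deviations. As a replicate block they gave 1484 lower and 1262 higher genes with MKC8866 and changed no member's call. Over the other named genes, 1427 values kept direction and side of the threshold, 63 lost a call, 17 gained one and 12 turned. Changes inside the printed intervals could not be seen over the spread between libraries, and the effect of shared exons on DUT, TYMS and DCK was not tested.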
